A study of Danio rerio with 14 samples.

Results

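The 6 CC chemokine ligand genes *ccl19a.1*, *ccl19b*, *ccl34a.4*, *ccl34b.8*, *ccl35.1* and *ccl38.1* were followed across the retinas of chmru848 and wild-type (wt) zebrafish at 5 days post fertilisation (dpf). They are 6 of the 19859 genes measured and 6 of the 11 measured genes whose symbol marks a CC ligand. They were selected on the study's own calls of higher expression in chmru848 retinas, made in these same retinas. Their difference between the genotypes is therefore given as a description, with its spread and interval and with no test.

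RNA of dissected retinas, with the retinal pigment epithelium (RPE) kept on, was sequenced from 7 chmru848 (chm) and 7 wt AB strain zebrafish, none of them treated. The gene *chm* encodes Rab escort protein 1, which presents Rab GTPases for prenylation, and its loss causes choroideremia in humans. The mutation was present in the whole body, zebrafish have no second escort protein to take over, and the larvae degenerate systemically and die at about this age. An effect of the retina itself therefore cannot be told apart from one of the failing larva. The level of *chm* was not analysed here, so the genotype labels were not checked against it.

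Chemokines are small secreted proteins that guide leukocytes along a gradient, and the CC family takes its name from a pair of adjacent cysteines near the start of the mature protein. They act through receptors that span the membrane several times and couple to G proteins. In mammals CCL19 draws dendritic cells and T cells through CCR7, CCL20 acts through CCR6 and CCL25 through CCR9. The families *ccl34*, *ccl35* and *ccl38* belong to the CC ligands that expanded in fish, and no receptor is assigned to them here. In a retina, microglia, Müller glia, RPE, vessels and invading leukocytes can all release chemokines.

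The libraries held an estimated 14.2 to 29.4 M reads in chm retinas and 18.1 to 26.4 M in wt retinas. The most abundant gene of a library held 5.16% to 36.6% of its normalized counts in chm and 6.55% to 13.7% in wt. This share was largest in chm 6 and 4, at 36.6% and 33.4%, and smallest in chm 7 and 5, at 5.16% and 6.25%. In chm retinas 369 to 1983 genes lay at the lowest value of the table, which stands for no read, against 317 to 628 genes in wt retinas, and chm 1, 2 and 4 had the most, with 1469 or more each. Photoreceptor markers identified the tissue in both genotypes, and 7 of 8 were lower in chm. The wt 6 retina stood apart from the other wt retinas, because its 4 summed cone opsins reached 218213 normalized counts, against 1021890 or more in the other 6. That value lay inside the chm range, 35439 to 486128. The wt 6 retina was also the highest wt retina in 3 of the 6 CC ligand genes. Across all 19751 genes tested with limma, 19.9% were higher and 23.7% lower in chm retinas at a Benjamini-Hochberg adjusted p under 0.05. Because these are bulk samples, fewer cells of a type and less RNA per cell cannot be told apart.

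All 6 genes were higher on average in chm than in wt retinas, which is what they were chosen for. In 4 of the 6, *ccl19a.1*, *ccl34a.4*, *ccl34b.8* and *ccl38.1*, every chm retina lay above every wt retina. Such a separation was found in 7.57% of all tested genes, and since the genes were picked in this contrast nothing is read from the comparison. In the other 2, *ccl19b* and *ccl35.1*, 6 of 7 chm retinas lay above every wt retina and all 7 lay above the wt median. Summed over the 6 genes, the normalized count was lowest at 222, with a median of 319 and a highest value of 1012, in chm retinas, against 25.6, 42.0 and 61.0 in wt retinas. The mean sum was 492 ± 306 in chm and 45.0 ± 13.6 in wt retinas (SD, n = 7 each), a ratio of 10.9.

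**Figure D1:**
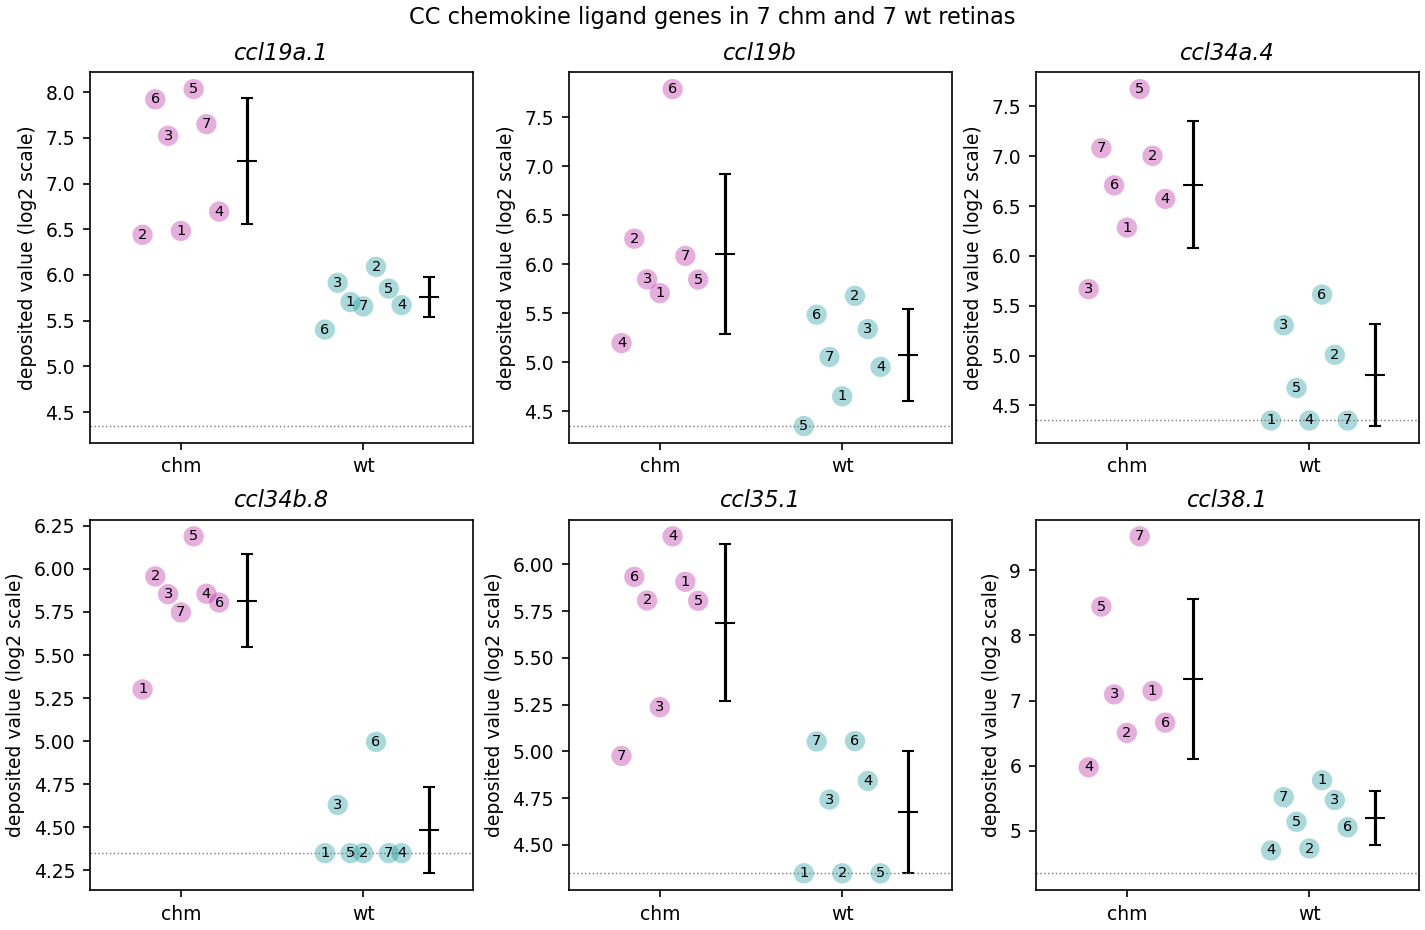
Level of the 6 CC ligand genes in each retina on the deposited log2 scale, with chm retinas left and wt retinas right in each panel; numbers in the points are replicate numbers, bars are the mean and SD of 7 retinas, and the dotted line is the lowest value of the table, which stands for no read. The genotypes overlap in *ccl19b*, through chm 4, and in *ccl35.1*, through chm 7.

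The genes *ccl19a.1* and *ccl19b* are zebrafish relatives of mammalian CCL19. The gene *ccl19a.1* (ENSDARG00000058389) was the 1 member with reads in every library of both genotypes at 13.7 estimated reads or more. Its lowest, median and highest normalized counts were 50.8, 145 and 223 in chm retinas, against 11.4, 19.4 and 33.4 in wt retinas. The chm retinas fell into a lower set, chm 1, 2 and 4 at 50.8 to 66.7, and a higher set, chm 3, 5, 6 and 7 at 145 to 223. Even the lower set stayed above every wt retina. The mean was 129 ± 72.3 in chm and 21.6 ± 7.12 in wt retinas (SD, n = 7 each), a ratio of 5.98, and on the log2 scale of the deposited values chm exceeded wt by 1.49 (SE 0.27, 95% interval 0.93 to 2.06). That scale flattens low counts, and for the 6 genes its differences were smaller than the log2 of the ratio of means. Without chm 1, 2 and 4, an omission chosen after seeing the data, the difference was 2.03. These were its 3 lowest chm retinas, so the omission had to raise it. With the same omission the difference of *ccl35.1* fell from 1.01 to 0.81, and that of no other of the 6 genes fell.

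The gene *ccl19b* (ENSDARG00000039351) had lowest, median and highest normalized counts of 7.22, 23.9 and 182 in chm retinas, against 0, 4.97 and 18.5 in wt retinas. The top value came from chm 6 alone, and the next chm retina, chm 2, held 41.3. The chm 4 retina, at 7.22, lay inside the wt range. The mean was 47.3 ± 60.3 in chm and 7.32 ± 6.85 in wt retinas (SD, n = 7 each), a ratio of 6.45, and the log2-scale difference was 1.03 (SE 0.32, interval 0.36 to 1.70). Among the 6 genes its interval came closest to zero, and without chm 6 the difference was 0.75 and the ratio 3.39. Both CCL19 relatives were therefore higher in chm, but their highest retinas were different ones.

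The genes *ccl34a.4* and *ccl34b.8* were under 3 estimated reads in 4 and 6 of the 7 wt retinas. The gene *ccl34a.4* (ENSDARG00000090873) had lowest, median and highest normalized counts of 18.2, 67.7 and 165 in chm retinas, against 0, 1.05 and 16.6 in wt retinas. In wt, 3 of 7 retinas had no read and the highest value was that of wt 6, an estimated 20.1 reads. The mean was 77.3 ± 47.4 in chm and 4.47 ± 6.36 in wt retinas (SD, n = 7 each), a ratio of 17.3, with a log2-scale difference of 1.91 (SE 0.29, interval 1.299 to 2.514) and of 2.04 without wt 6. The ratio without wt 6 was 31.7.

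The gene *ccl34b.8* (ENSDARG00000093098) had lowest, median and highest normalized counts of 9.19, 24.3 and 37.9 in chm retinas, against 0, 0 and 4.16 in wt retinas. In wt, 5 of 7 retinas had no read, and all 7 together held an estimated 6 reads, against 177 in chm. The mean was 23.9 ± 8.59 in chm and 0.705 ± 1.55 in wt retinas (SD, n = 7 each). The ratio of 33.9 rests on those few wt reads. Without wt 6 it was 186, on an estimated 1 wt read, whose 95% counting interval alone spans ratios of 33.3 to 7335. The log2-scale difference was 1.33 (SE 0.17, interval 0.97 to 1.70), and 1.42 without wt 6, the retina that held most of the wt reads. Of the 6 genes it was the most even in chm, with an SD of 0.27 on the log2 scale. That was below the chm SD of all but 7.75% of 2388 genes of like mean level over both genotypes together. The level of *ccl34b.8* in chm was above its mean over both genotypes. The percentage therefore does not compare genes of like level in chm.

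The gene *ccl35.1* (ENSDARG00000103466) had lowest, median and highest normalized counts of 3.91, 22.7 and 36.1 in chm retinas, against 0, 1.53 and 4.99 in wt retinas. The chm 7 and chm 3 retinas, at 3.91 and 7.97, were the low ones, and the other 5 chm retinas held 22.6 to 36.1. In wt, 3 of 7 retinas had no read and 2 more stayed under 3 reads. The mean was 20.9 ± 11.3 in chm and 1.98 ± 2.24 in wt retinas (SD, n = 7 each), a ratio of 10.5, with a log2-scale difference of 1.01 (SE 0.21, interval 0.57 to 1.45).

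The gene *ccl38.1* (ENSDARG00000041919) had lowest, median and highest normalized counts of 28.8, 99.0 and 695 in chm retinas, against 1.21, 6.28 and 21.7 in wt retinas. The highest were chm 7 at 695 and chm 5 at 309, and the other 5 chm retinas held 28.8 to 104. The mean was 193 ± 240 in chm and 8.96 ± 7.58 in wt retinas (SD, n = 7 each), a ratio of 21.6, and the log2-scale difference was 2.14 (SE 0.42, interval 1.24 to 3.03). Its SD over chm retinas, 1.23 on the log2 scale, was the highest of the 6 genes, and that of *ccl34b.8* was the lowest. The SD of *ccl38.1* was above that of 97.1% of 1769 genes of like mean level over both genotypes together. These genes were again not matched on their level in chm. Without chm 7 the ratio was 12.3 and the difference 1.77, and that difference was the lowest of those obtained by leaving out any 1 retina.

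The makeup of the sum differed between chm retinas. In chm 7, *ccl38.1* supplied 68.6% of the summed count of the 6 genes and *ccl35.1* 0.387%. In chm 4, *ccl38.1* supplied 13.0% and *ccl35.1* 16.3%. In chm 6, *ccl19b* supplied 32.1%, against 3.06% to 14.3% in the other chm retinas. These shares set counts of genes side by side that are not corrected for length, so they describe retinas and do not rank genes. The chm 5 retina was the highest in 3 of the 6 genes, and no chm retina was the highest or the lowest in all of them.

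Whether the 6 genes went up and down together was tested inside each genotype. Correlation between genes was no criterion of the choice, although the spread inside each genotype entered the study's calls. In chm retinas the 15 pairs had a median Pearson r of 0.11, from −0.73 to 0.55, with 11 positive, and none had an exact permutation p under 0.05. The closest was the negative pair of *ccl35.1* and *ccl38.1* (r = −0.73, exact permutation p = 0.0599, Spearman rho = −0.75, exact permutation p = 0.0663, n = 7). Its r was −0.67 without the 2 retinas farthest from the median of *ccl35.1*, and its adjusted p over the 30 pairs of both genotypes was 0.75 by the same exact permutation. The pair of *ccl34a.4* and *ccl34b.8* had r = 0.54 and the pair of *ccl19a.1* and *ccl19b* r = 0.45.

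In wt retinas the median r was −0.02, from −0.69 to 0.86, with 7 of 15 positive. The pair of *ccl34a.4* and *ccl34b.8* reached r = 0.86 (exact permutation p = 0.0238, rho = 0.83, exact permutation p = 0.0238, n = 7), but its adjusted p was 0.714 by the same exact permutation. The pair rests on wt 3 and wt 6, the only wt retinas with a read of *ccl34b.8*, and without the 2 retinas farthest from the median r had no value. After adjustment 0 of the 30 pairs passed, and 1 had an unadjusted exact permutation p of r under 0.05. No difference in correlation between the genotypes was tested.

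**Figure D2:**
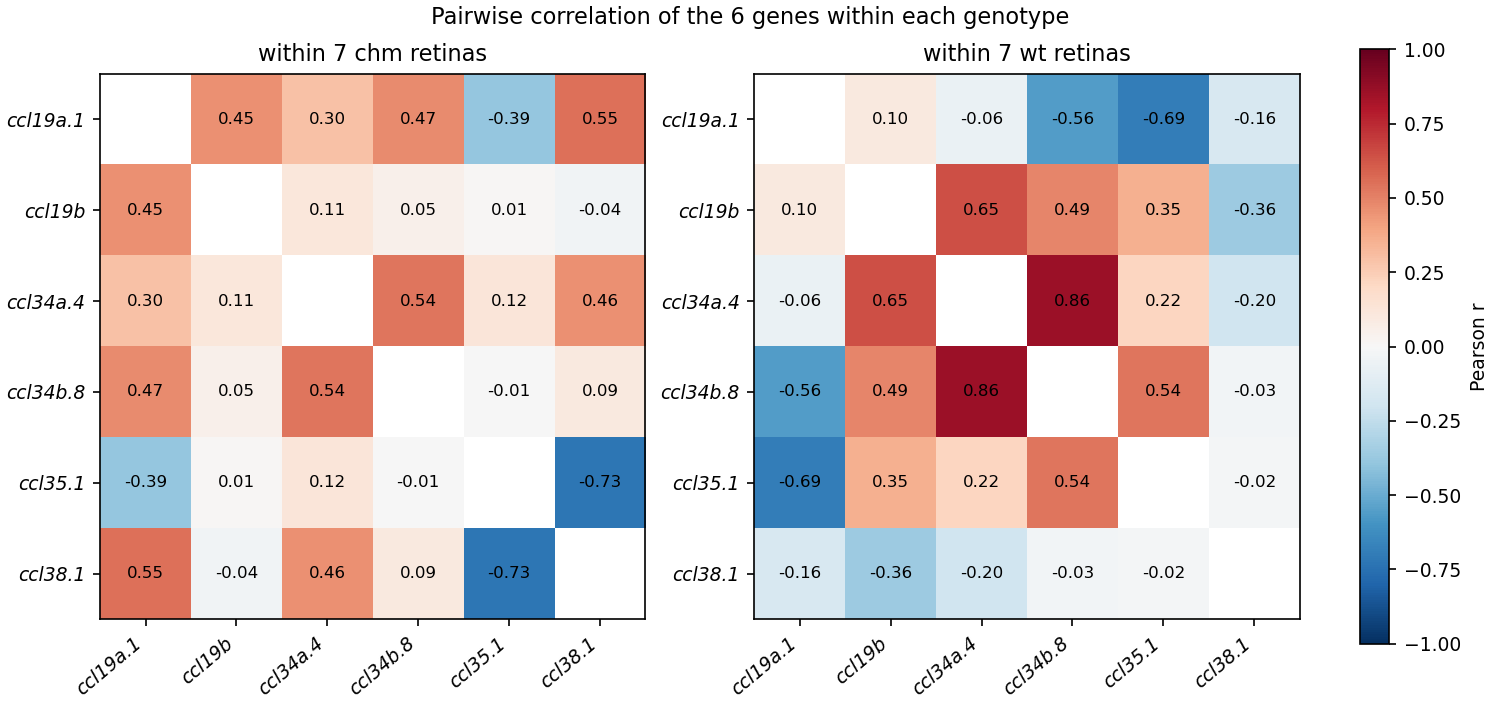
Pearson r of each pair of the 6 genes over 7 chm retinas (left) and 7 wt retinas (right), on a colour scale of −1 to 1 with the value printed in each cell. In chm the most negative cell is *ccl35.1* with *ccl38.1* at −0.73, and in wt the most positive is *ccl34a.4* with *ccl34b.8* at 0.86.

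How many genes a library left at the lowest value, that is with no read, was set against the members, and their mean passed the test in neither genotype. The mean of the 6 standardised genes had r = −0.75 with it in chm retinas (exact permutation p = 0.0623, rho = −0.75, exact permutation p = 0.0663, n = 7, r = −0.67 without the 2 farthest retinas, adjusted p = 0.125 over 2 genotypes) and r = −0.17 in wt retinas (exact permutation p = 0.72, rho = −0.18, exact permutation p = 0.713, r = 0.12 without the 2 farthest retinas, adjusted p = 0.72). On this measure the chm retinas form 2 sets, chm 1, 2 and 4 with 1469 to 1983 genes and the other 4 with 369 to 760, so the chm value chiefly sets these against each other. The gene *ccl19a.1* separated the same sets, at 50.8 to 66.7 and 145 to 223 normalized counts, while *ccl34a.4* and *ccl34b.8* did not. For *ccl35.1* the order was partly turned round, since chm 7 and chm 3, both in the set with fewer such genes, were its lowest. Taken gene by gene, after seeing the data, none of the 12 relations passed adjustment. The closest was *ccl19a.1* in chm (r = −0.94, exact permutation p = 0.00456, rho = −0.86, exact permutation p = 0.0238, r = −0.92 without the 2 farthest retinas, adjusted p = 0.0548). In wt it was *ccl38.1* (r = −0.78, exact permutation p = 0.0357, adjusted p = 0.214). A gene with no read may have been missed or not expressed, and these cannot be told apart. Beyond these correlations, the part of library quality in these levels was not tested.

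**Figure D3:**
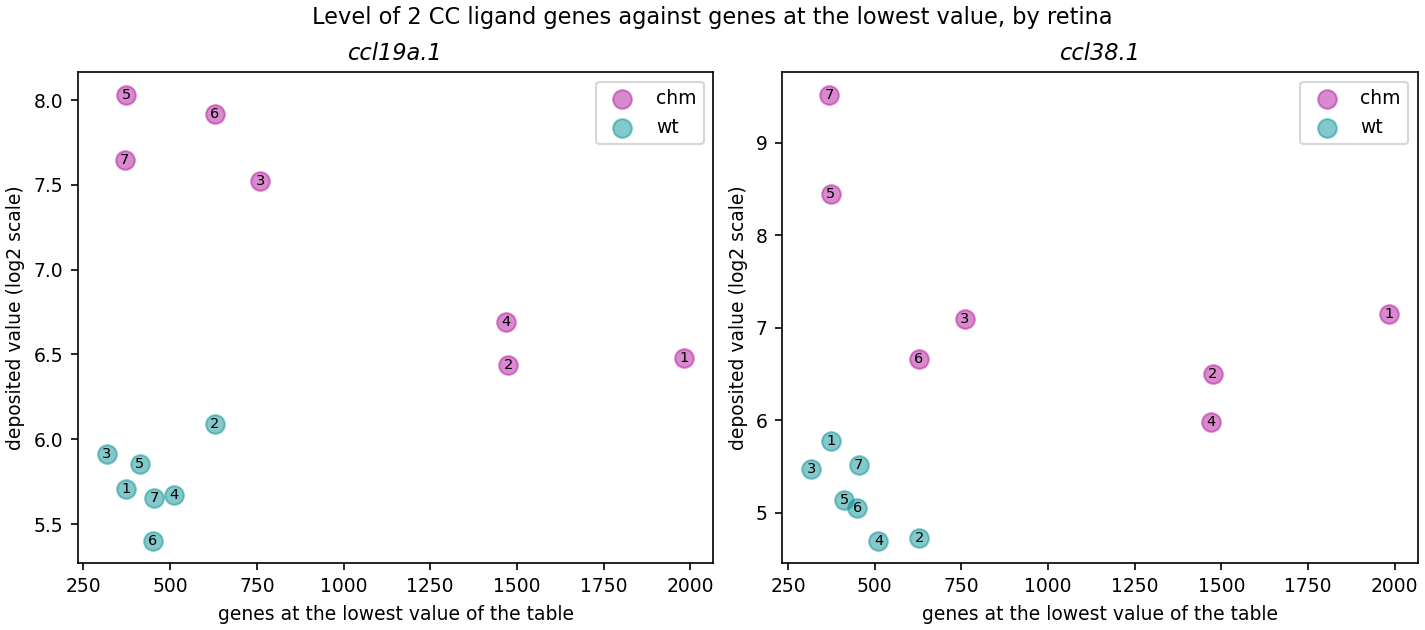
Deposited log2-scale level of *ccl19a.1* (left) and *ccl38.1* (right) in each retina against how many genes lay at the table floor, its lowest value, with chm and wt retinas in separate colours and replicate numbers in the points. The chm 1, 2 and 4 retinas, with 1469 to 1983 such genes, hold the 3 lowest chm values of *ccl19a.1*, and chm 5 and 7, with 374 and 369, hold the highest *ccl38.1*.

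Of the other 5 CC ligands measured, from which the 6 had already taken genes called higher, 0 were higher and 1 was lower in chm at an adjusted p under 0.05 (limma), beside 19.9% and 23.7% of all genes, and the median difference was −0.83, beside −0.06 over all genes. The gene *ccl44* averaged 167 ± 131 normalized counts in chm and 426 ± 268 in wt (SD, n = 7 each), that is −1.25 on the log2 scale (SE 0.47, limma adjusted p = 0.0381). The gene *ccl34b.1*, known from a subset of zebrafish microglia and of the same family as 2 of the 6, averaged 92.6 ± 81.6 in chm and 173 ± 78.0 in wt, which is −0.85 on the log2 scale (SE 0.35, limma adjusted p = 0.0587). The gene *ccl20b*, a relative of mammalian CCL20, averaged 12.9 ± 27.5 in chm, with 5 of 7 retinas at 0, and 21.8 ± 12.4 in wt retinas (difference −0.83, SE 0.35, limma adjusted p = 0.0642).

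The remaining pair, *ccl20a.3* and *ccl25b*, had differences of 0.21 and −0.12 (limma adjusted p = 0.628 and 0.86), and for *ccl25b* the mean normalized count had the opposite order, 170 ± 238 in chm and 111 ± 56.2 in wt. The nearest gene outside the 6 by size was *ccl20a.3* at 0.21 (SE 0.33), and the nearest inside was *ccl35.1* at 1.01. Because the 6 were chosen for being higher in this contrast, nothing is read from the gap. The name table holds 34 CC ligand identifiers, and those beyond these 11 were not analysed here.

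**Figure D4:**
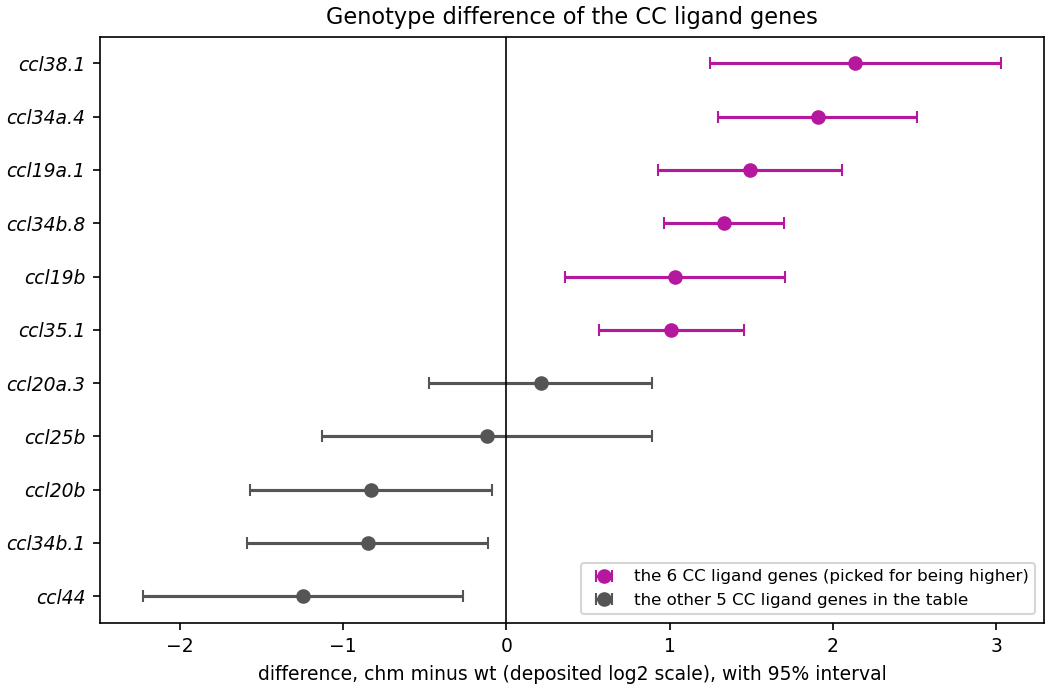
Difference of the 11 measured CC ligand genes, chm minus wt, on the deposited log2 scale, with 95% intervals over 7 retinas per genotype; coloured points are the 6 genes chosen for being higher in chm, and grey points the other 5. The 6 run from 1.01 to 2.14 and the other 5 from −1.25 to 0.21.

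In the order of the RefSeq assembly GRCz12tu, a different build from that of the data, 4 of the 6 genes have other chemokine genes within 5 genes on either side. The gene *ccl19a.1* lies next to *ccl19a.2*, *ccl34a.4* next to *ccl34a.3*, *ccl35.1* next to *ccl39.2*, and *ccl34b.8* next to *ccl34b.9*, in a cluster of 6 further chemokine genes that includes *ccl34b.1*. The genes *ccl19b* and *ccl38.1* have none. The clustered neighbours *ccl34b.8* and *ccl34b.1* had opposite signs between the genotypes, 1.33 and −0.85. Reads of near-identical copies were divided between them by the authors' counting, so the levels of genes with such neighbours carry that uncertainty.

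Among the CXC ligands, the family whose cysteines are parted by another residue, 3 of 9 tested genes were higher and 0 lower in chm (limma), beside 19.9% and 23.7% of all genes. The neutrophil attractant *cxcl18b* averaged 7264 ± 3064 normalized counts in chm and 199 ± 289 in wt retinas (difference 5.77, SE 0.58, limma adjusted p = 4.96e-07). Its wt mean came mostly from wt 1 and wt 6, at 607 and 635, while the other wt retinas held 10.8 to 49.6. The genes *cxcl8a* and *cxcl8b.1*, relatives of the human neutrophil attractant CXCL8, had differences of 3.11 (limma adjusted p = 0.000366) and 2.99 (limma adjusted p = 0.000196). A further relative, *cxcl8b.3*, was listed at 0 in all 7 wt retinas and at up to 103 in chm, and was not tested.

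Among 10 chemokine receptor genes, 3 were higher and 1 lower in chm (limma), a count near the 19.9% and 23.7% of all genes. The gene named CCR9, whose mammalian product binds CCL25, had lowest, median and highest normalized counts of 13.1, 50.3 and 114 in chm retinas, against 0.82, 3.32 and 12.7 in wt retinas. Every chm retina lay above every wt retina (difference 1.29, SE 0.26, limma adjusted p = 0.000674). Such a separation was found in 1 of the 10 receptor genes and in 7.57% of all tested genes, so nothing is read from it. The gene *ccl25b* was not called, and whether it pairs with this receptor in zebrafish was not tested. The genes *ccr12b.2* and *cxcr3.3* were higher by 0.81 (limma adjusted p = 0.0214) and 0.65 (limma adjusted p = 0.0362). The copy of ACKR3 with identifier ENSDARG00000062478, a relative of a scavenger receptor that binds CXCL12, was lower by 1.06 in chm (difference −1.06, limma adjusted p = 0.00925). It was under 3 estimated reads in 6 chm and 2 wt retinas. The other copy, ENSDARG00000058179, had higher counts, with a mean of 124 in chm and 178 in wt. That copy was not called (difference −0.73, limma adjusted p = 0.108). The gene for CCR7, the mammalian receptor of CCL19, was not analysed here.

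Signalling genes upstream and beside the chemokines were also counted, from lists that the study itself largely drew from calls in these retinas, so that their direction is not independent evidence. Of 15 NF-kB and innate signalling genes, 14 were higher in chm with a median difference of 1.11, among them *relb*, a subunit of NF-kB (1.20, limma adjusted p = 0.000347), and the exception was *ripk2* (0.48, limma adjusted p = 0.062). Of 16 cytokine and cytokine receptor genes 15 were higher (median 1.84), and of 7 Jak-Stat genes 6 were higher (median 2.48). Over all tested genes 19.9% were higher and the median was −0.06.

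Some leukocyte markers were higher in chm, but part of the list is not independent of calls in these retinas. The study itself named *cyba* and *ncf4* as upregulated, and *csf2rb* and *card9* also stand in the signalling lists above. Of 11 macrophage, microglia and neutrophil markers measured, 5 were higher in chm and 0 lower (limma), beside 19.9% and 23.7% of all genes, with a median difference of 0.62, and *mpeg1.1*, *mpx*, *p2ry12* and 3 others of the list were not analysed here. Without *apoeb*, which other cells of the retina also express, the summed level of the 10 others was 440 to 1039 normalized counts in chm and 166 to 330 in wt retinas, with no overlap. Without *lyz* and *cyba* as well, a choice made after seeing the data, the 8 others summed to 113 to 365 in chm and 82.8 to 214 in wt retinas, which overlap. The markers *lcp1*, *coro1a* and *csf1ra* were not called, with differences of −0.25, −0.10 and 0.06. The neutrophil lysozyme gene *lyz* had the largest difference of the 11, at 62.3 to 464 in chm and 2.09 to 22.9 in wt retinas (difference 2.74, limma adjusted p = 3.99e-06). None of the 11 measured markers was at 0 in all retinas of a genotype, although *csf2rb* was at 0 in 5 of 7 wt retinas. This says nothing of the markers not analysed, *mpeg1.1*, *mpx* and *p2ry12* among them. The part of leukocytes in the chemokine values was not tested.

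Within chm retinas the standardised mean of that leukocyte list had r = 0.70 with *ccl34a.4*, the highest of the 6 (exact permutation p = 0.0762, rho = 0.68, exact permutation p = 0.11, n = 7), and r = 0.13 with *ccl38.1* (exact permutation p = 0.782, rho = −0.21, exact permutation p = 0.662). Without the 2 farthest retinas these fell to 0.21 and 0.06. For *ccl19b* r was 0.60 (exact permutation p = 0.151, rho = 0.71, the highest rho of the 6, exact permutation p = 0.0881), and 0.79 without the 2 farthest retinas. In wt retinas the highest r was 0.84 with *ccl35.1* (exact permutation p = 0.0524), and 0.87 without the 2 farthest retinas. The smallest adjusted p over the 12 relations of both genotypes was 0.363 by the same exact permutation. These relations were chosen after seeing the data.

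The retinas chm 5 and chm 7 shared high values of several chemokine genes, *ccl38.1* among them, and of many other genes. They were the highest pair of chm retinas for 10 of the 21 measured CC and CXC ligand genes, and for 15.1% of all tested genes. Those ligands included *ccl34a.4* and *ccl38.1* of the 6. The genes whose values over the 7 chm retinas were most like those of *ccl38.1* among the ligands were *cxcl8b.3* (r = 0.99), *cxcl8b.1* (0.96), *cxcl18a.1* (0.93), CXCL12 (0.89), *ccl25b* (0.88) and *ccl34b.1* (0.87). In the 5 chm retinas other than chm 5 and 7 the values were 0.89, 0.99, 0.42, 0.28, 0.97 and 0.20 in the same order, and *cxcl8b.3* held at most 8.87 normalized counts there. Over the 7 chm retinas, POFUT1 (r = 0.992), PDHB (0.992) and *fam136a* (0.991) were nearer to *ccl38.1* than any ligand, *cxcl8b.3* being at 0.990. The pattern was noticed in these data, and the values describe 7 and 5 points that share library and depth.

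The same 2 retinas had the deepest libraries, with an estimated 28.1 and 29.4 M reads, and the most cone opsin of the chm retinas, with 290578 and 486128 normalized counts, against 35439 to 222770 in the other 5. The leukocyte markers were mixed in these 2 retinas. They had the lowest *lyz* of the chm retinas, at 68.5 and 62.3, and the lowest *card9*, at 22.8 and 10.5. They had the highest *apoeb*, at 63225 and 69696, *coro1a*, at 126 and 151, and *cyba*, at 519 and 346. The remaining markers of the list had neither pattern. The part of depth and of remaining photoreceptors in this pattern was not tested.

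**Figure D5:**
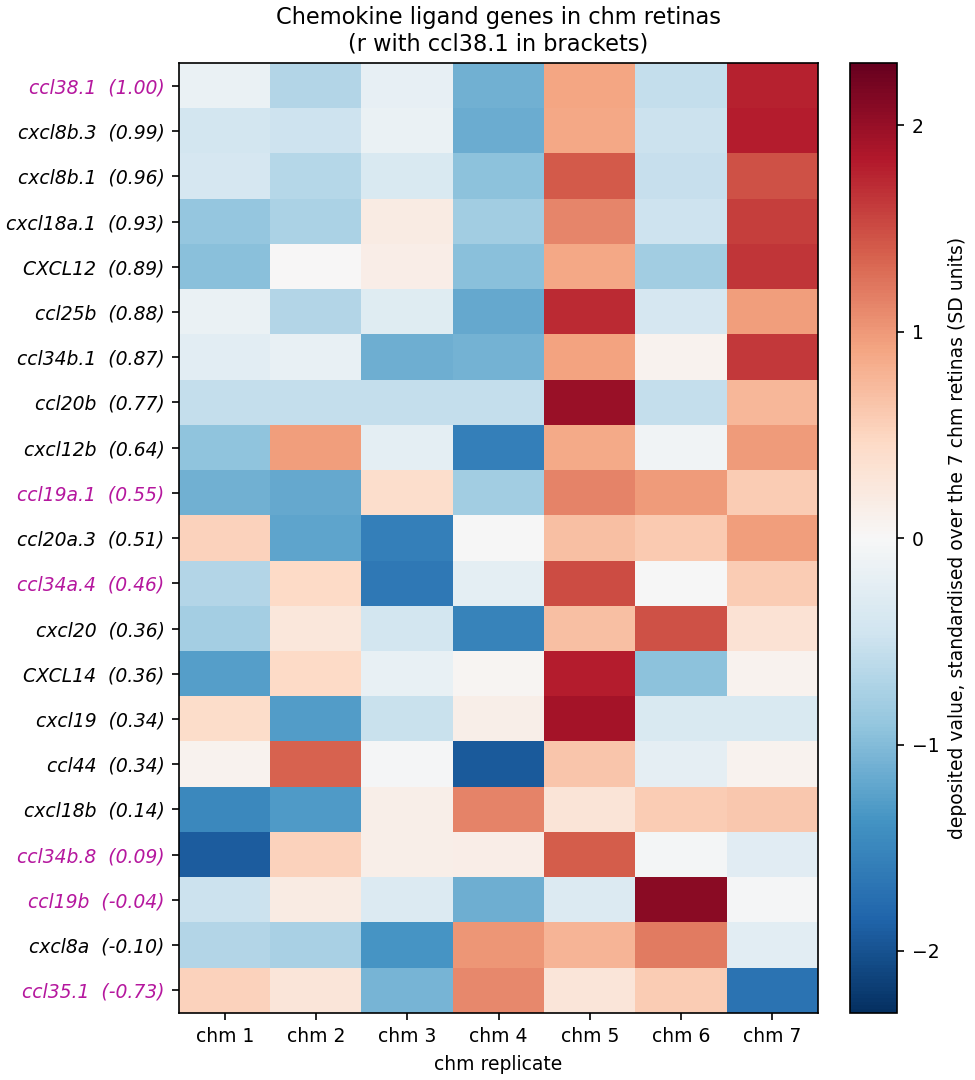
Deposited level of the 21 measured CC and CXC ligand genes in each chm retina, standardised over the 7 chm retinas (colour, in SD units) and ordered by r with *ccl38.1* (in brackets); names of the 6 genes are coloured. The upper rows share high values in chm 5 and 7, while *ccl19b* is high in chm 6 and *ccl35.1* is low in chm 7.

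Of all genes with a symbol, those most like the mean of the 6 standardised genes over the chm retinas were *lygl1*, a g-type lysozyme (r = 0.97), *cdc14aa* (0.96), *tmtops2a* (0.96), GRAMD1C (0.95) and *moxd1l* (0.95), with 3 of 19735 genes at or above the r of *lygl1*. Between the genotypes these 5 did not share a sign: the differences, chm minus wt, were 1.27, −2.44, −1.53, −0.18 and 0.13 in the same order. For single members, compared after seeing the data, the first by likeness were SPTLC3 for *ccl19a.1* (0.99), PLCB1 for *ccl19b* (0.97), MFAP4 for *ccl34a.4* (0.98), *rxfp3.2b* for *ccl34b.8* (0.97), MFHAS1 for *ccl35.1* (0.99) and POFUT1 for *ccl38.1* (0.99). Each was picked as the highest with a symbol among 19740 genes compared over 7 retinas. Without the 2 farthest retinas r was 0.97, 0.74, 0.89, 0.58, 0.84 and 0.99 in the same order. SPTLC3 was at 0 in chm 1 and 2, and *rxfp3.2b* at 0 in chm 1. The differences of these genes between the genotypes were −0.45, −0.58, 0.79, −0.58, 0.25 and 0.44 in the same order. Genes of the *mfap4* group serve as macrophage markers in zebrafish. The gene named MFAP4 here (ENSDARG00000090783) ranged from 18.4 normalized counts in chm 3 to 459 in chm 5, the same lowest and highest chm retinas as *ccl34a.4*, and r was 0.89 without the 2 farthest retinas.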

How the data were processed

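The authors extracted RNA from retinas (RIN of at least 8), built cDNA libraries (SMART-Seq v4 kit), removed adapters with Trim Galore 0.6.7, aligned them to GRCz11 with STAR 2.7.10a and estimated gene counts with RSEM 1.3.3, which divides reads shared by similar genes. Versions follow the submitters' processing notes. The deposited values are DESeq2 1.38.3 variance-stabilized values on a log2 scale, normalized for library size by the authors, with no correction for gene length. Strand was not given in the sources used here, so reads of an overlapping antisense gene cannot be told apart.

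The transformation was undone with its single dispersion, 0.0123, to give normalized counts, checked on 250 genes against the base means the authors list (largest relative difference 1.64e-14). Columns holding the authors' own fold changes and p-values were not used. The normalized count of 1 read was estimated per library from the spacing of low values, and gave the depths and estimated reads. These are approximate, because 51.3% to 64.2% of low values lay within 5% of a step of a whole read. A gene under 3 estimated reads was treated as near no reads, and such limits cover counting error only.

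Genes detected in 7 or more of the 14 retinas were tested on the deposited log2 values with limma 3.58.1 (R 4.3.3, variance trend, two-sided, Benjamini-Hochberg), without covariates. Correlations within a genotype used exact two-sided permutation of all pairings (scipy 1.17.1). The script was tested on simulated data. The labels do not say whether retinas came from separate clutches, so p-values measure the spread between these samples. Same-numbered retinas were treated as unpaired.

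The members and lists were chosen with earlier results of these data known. Named were the 6 genes, every other gene whose symbol marks a chemokine or chemokine receptor, the signalling and marker lists, and the 5 symbol-bearing genes most like the mean of the 6. Symbols came from a name table that covered 18974 of 19859 identifiers and gives some in human capitals. Alternatives were other gene filters, no trend, a replicate block, median centring, quantile normalization, other scales and leaving out each retina. For the pairs of members, Spearman rho and a partial correlation given how many genes lay at the lowest value were added.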

Additional observations from a re-analysis of the deposited data

Results flagged for a closer look

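The normalized count of *ccl19b* in chm 6, 182, lay far from the other 6 chm retinas: on the log2 scale the gap to the next retina was 0.589 of the whole range, above Dixon's 95% critical value for 7 samples. This was the 1 value singled out in 14 groups tested, the 6 genes and the count of undetected genes in each genotype, and chance singles out about 1 in 20 groups. Without chm 6 the difference of *ccl19b* between the genotypes was 0.75 on the log2 scale, against 1.03 with it.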

How the results depend on the processing

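Same-numbered retinas did not deviate together (correlations from −0.12 to 0.10), and fitting the number as a replicate block gave 4036 genes higher and 4791 lower in chm, against 3940 and 4687 without it. Median centring gave 4394 higher and 4280 lower, and quantile normalization 4370 and 4374. Leaving out 1 retina at a time gave 3524 to 3944 higher and 4218 to 4785 lower. The 6 genes stayed higher in chm under every alternative run. The number with no overlap between the genotypes was 4 with median centring and with quantile normalization. It was 4 to 5 when leaving out 1 retina, and 5 without chm 1, 2 and 4, an alternative chosen after seeing the data. Leaving out retinas can only keep or raise this number, so these omissions are no test of it. The share of all genes with no overlap under the same omissions is not given here. Leaving out 1 retina moved the difference of *ccl38.1* between 1.77 and 2.36 and that of *ccl19b* between 0.75 and 1.18. Leaving out 1 retina, also chosen after seeing the data for this measure, moved the ratio of means over 1.5 times for 4 of the 6 genes, by chm 6 for *ccl19b*, wt 6 for *ccl34a.4* and *ccl34b.8*, and chm 7 for *ccl38.1*. As log2 ratios of mean normalized counts (pseudocount 0.5) the differences of the 6 genes were larger, from 2.55 for *ccl19a.1* to 4.36 for *ccl38.1*, in part because the deposited scale flattens low counts. The median pairwise r was near zero under each setting. In chm it was −0.03 to 0.15 by other scalings, Spearman rho and partial correlation given how many genes lay at the lowest value. Leaving out 1 retina gave 0.06 to 0.25 in chm. In wt these settings gave −0.01 to 0.11, and leaving out 1 retina gave −0.10 to 0.20. Depth limits *ccl34b.8* and *ccl35.1* most, with 6 and 16 estimated reads over the 7 wt libraries.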
